A study of Gallus gallus with 12 samples.

Results

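The genes described here encode the protein complexes of mitochondrial oxidative phosphorylation in the hen's utero-vaginal junction (UVJ), the part of the oviduct between shell gland and vagina whose tubules store sperm. The group was chosen with earlier results of these data known, and its members were then taken by symbol. These are names that begin with NDUFA, NDUFB, NDUFC, NDUFS or NDUFV, with COX and a digit from 4 to 8, with UQCR or ATP5, or that are SDHA to SDHD. The rule found 53 genes among the 18407 symbols on a NimbleGen chicken array, and each was represented by the brightest of its features. Of these, 30 belonged by name to complex I, 2 to complex II, 2 to complex III, 8 to complex IV and 11 to complex V. Of the 53, 48 name a subunit, and 5 match the rule but name an assembly factor or another protein, namely NDUFAF1, NDUFA12L, COX4NB, COX7A2L and ATP5S. NDUFA12L is now called NDUFAF2. The list is not complete, since some subunits stand on the array under protein names that the rule does not read.

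The arrays held RNA of 12 White Leghorn hens, each taken at a single time, 24 h after treatment. Naturally mated hens (n = 4) had been paired with a male each, and seminal fluid hens (SF, n = 4) had received pooled, sperm-free seminal fluid of those males by insemination into the cloaca. Control hens (n = 4) were left unmated and were not inseminated, so that no group received a sham infusion. Each array is a bulk measurement of a whole piece of UVJ, in which fewer cells of a type and less RNA per cell cannot be told apart. The mated, SF and control hens occupied consecutive places on the array set, and place and treatment cannot be told apart.

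Oxidative phosphorylation is the last stage of cell respiration. Complex I and complex II pass electrons from NADH and succinate to ubiquinone, complex III passes them to cytochrome c and complex IV to oxygen, while complexes I, III and IV pump protons across the inner mitochondrial membrane. Complex V, the ATP synthase, lets the protons flow back and makes ATP. A small number of core subunits are encoded in the mitochondrial genome and all others, including every gene chosen here, in the nucleus. In the hen's oviduct the shell gland, which secretes calcium and bicarbonate, is known for a high demand for ATP.

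Values are log2 intensities and differences are those between group means, each with its standard error (SE) from limma. A log2 difference of 1 is a doubling of intensity. The median intensity of an array was between 1077 and 1102, and the random-sequence control lay at log2 3.81 to 3.95. Of the 53 genes, 52 were above that control on all 12 arrays. ATP5I, which encodes the small membrane subunit e of ATP synthase, was the exception. Its log2 intensity was 3.23 to 4.07 in mated, 3.55 to 4.82 in SF and 3.23 to 4.71 in control hens, so that all groups overlapped with each other and with the random control. Intensities of different probes are not amounts, and no gene is ranked against another by its level.

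The most conspicuous feature of these genes was that they moved together from hen to hen, whatever the complex. All 53 were higher in mated hen 3 than in mated hen 4, with a median gap of 0.91 on the log2 scale, or 1.88-fold, where 53% of all 37374 features were higher in mated hen 3 and the median gap over all features was 0.039. The highest of the 12 arrays was mated hen 3 for 40 of the 53 genes (75.5%, against 15.8% of all features). The lowest was mated hen 4 for 30 genes (56.6%, against 11.8% of all features) and SF hen 2 for a further 18. Mated hen 3 and mated hen 4 thus stood at opposite ends of this gene group within a single treatment. This pair was picked out after the levels of these genes were seen. The shares over all features are for the same hens, which were not picked on those features. No gene of the group was highest in mated hen 4 (10.6% of all features were) and none was lowest in mated hen 3 (15.5% of all features were). Over all features, mated hen 3 was thus often extreme in both directions. Its array also had the smallest limma array weight of the 12 (0.404), a weight that falls as an array departs from its group. That of mated hen 4 was 0.648. Whether the hens or the arrays differed was not tested.

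Expressed as the median deviation of the 53 genes from their own means over the 12 arrays, the level was -0.08, -0.06, 0.44 and -0.40 in mated hens 1 to 4, 0.10, -0.32, -0.16 and 0.09 in SF hens 1 to 4 and -0.05, 0.22, 0.31 and -0.09 in control hens 1 to 4. The 3 groups overlapped throughout, with the highest and the lowest value both among mated hens. The SD within a group (n = 4) was 0.35 in mated, 0.20 in SF and 0.20 in control hens. The gap between mated hens 3 and 4 in the complex medians was 0.88 for complex I, 0.58 for complex II, 0.84 for complex III, 0.75 for complex IV and 0.74 for complex V. Over all features the median deviation of an array stayed between -0.02 and 0.06.

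**Figure D1:**
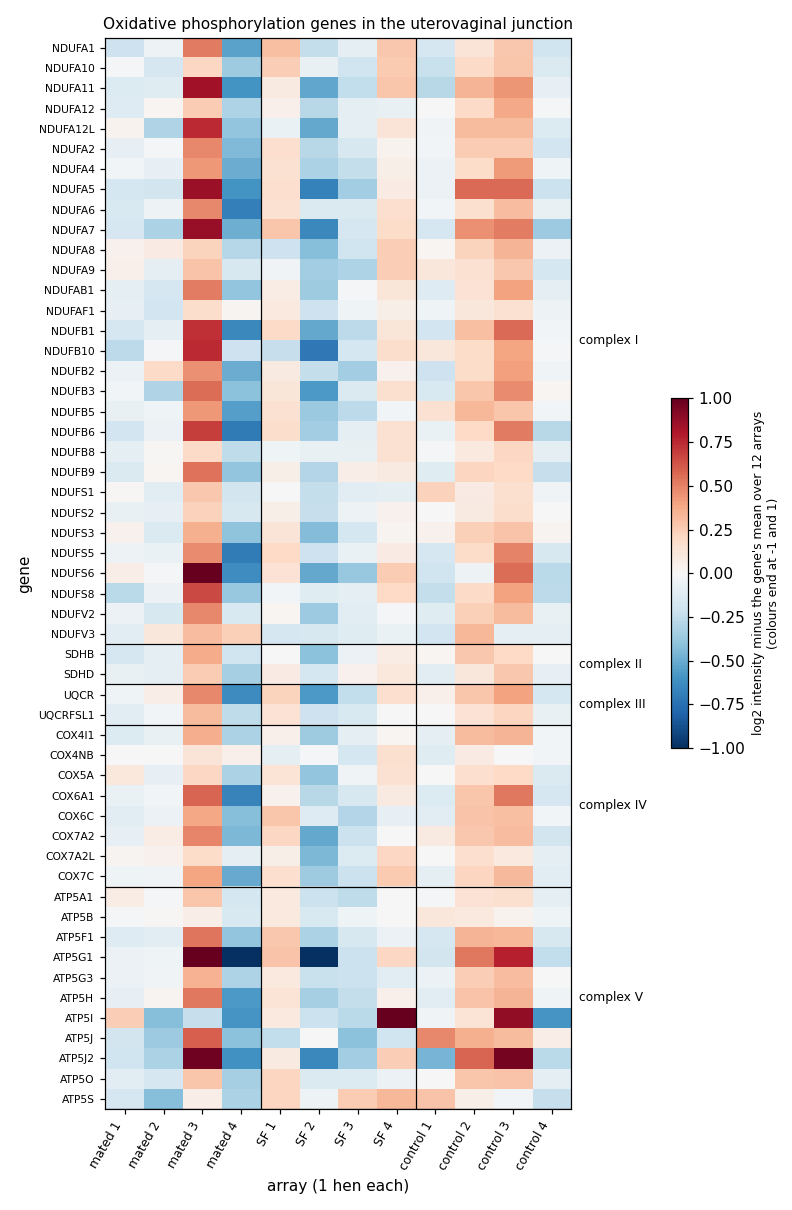
Log2 intensity of each of the 53 genes (rows, by complex) on each of the 12 arrays (columns: mated, SF and control hens 1 to 4) as the difference from the gene's mean over the 12 arrays, with colours ending at -1 and 1. The column of mated hen 3 is red in nearly every row and that of mated hen 4 blue, and control hens 2 and 3 are mostly red and SF hen 2 mostly blue.

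As a description, Pearson's r between a pair of these genes over the 12 arrays had a median of 0.84 (Spearman's rho 0.82) over 1378 pairs, of which 1374 were above 0, and the median over all pairs of genes with a symbol was close to 0. The median r was 0.84 for the 520 pairs within a complex and 0.84 for the 858 pairs from different complexes. With the group means taken out, the median over the pairs was 0.86. Without mated hens 3 and 4, it was 0.78 (Spearman's rho 0.75). All pairs share the same 12 RNA samples and the same normalisation, and no test was made of these values.

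Among the genes that shared least in this movement were ATP5S and COX4NB, which name no subunit of the complexes. The median r of a gene with the other 52 was 0.26 for NDUFV3, 0.33 for ATP5S, 0.35 for COX4NB, 0.47 for ATP5I and 0.60 for ATP5J. ATP5I overlapped with the random control. The remaining genes that name no subunit had higher values, with 0.68 for NDUFAF1, 0.72 for COX7A2L and 0.86 for NDUFA12L. COX4NB is a neighbour of COX4I1 in the genome that encodes a subunit of the endoplasmic reticulum membrane complex and no part of complex IV. Its values were 11.83, 11.82, 11.96 and 11.88 in mated, 11.74, 11.81, 11.65 and 11.99 in SF and 11.71, 11.91, 11.83 and 11.80 in control hens, so that mated hens 3 and 4 differed by 0.08. The 5 genes that name no subunit had a median deviation of 0.18 in mated hen 3 and -0.10 in mated hen 4, beside 0.46 and -0.41 for the 48 subunits.

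The spread over hens differed between genes. The distance from the lowest to the highest of the 12 arrays was 0.26 for ATP5B and 2.50 for ATP5G1, which is 5.66-fold, and these were the ends of the range. Its median was 0.65 for the 17 genes with the brightest features, 0.94 for the 18 in the middle and 1.21 for the 18 with the dimmest. The brightest features thus showed the smallest differences between hens. Over all features the median distance was 0.90 and over these 53 genes 0.91. Among mated hens alone, the median SD of a gene was 0.38 over these genes and 0.25 over all features, among SF hens 0.23 and 0.24, and among control hens 0.22 and 0.24.

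Mean levels were lower in mated than in control hens for 50 of the 53 genes, where 49.8% of all features were lower. The median difference was -0.12, against 0.001 over all features, and 0 of the 53 genes passed an unadjusted p of 0.05 in limma, where 2.22% of all features (828) did. The 53 values are not independent of each other, because the genes moved together over the same hens, and the SD of the array medians among mated hens (0.35) was larger than the median difference. Without mated hen 3 the median difference was -0.28 and 5 genes passed an unadjusted p of 0.05 in limma, all lower in mated hens (ATP5J, NDUFB5, ATP5O, ATP5S and NDUFA6), where 5.64% of all features passed, and without mated hen 4 it was -0.007 with 0 genes. Without both hens it was -0.18, with ATP5J alone passing (2.38% of all features), and without control hen 3 it was -0.038. In no gene did the 4 mated hens lie apart from the 4 control hens, which 1.34% of all features did.

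SF-infused hens were compared with the same 4 control hens. The mean was lower in SF than in control hens for 49 of the 53 genes (48.3% of all features were lower), with a median difference of -0.17 against 0.009 over all features. With limma, 1 of the 53 genes passed an unadjusted p of 0.05, which 6.47% of all features (2417) did, and 1 gene had groups that did not overlap, which 3.84% of all features did. Both counts are ATP5J. The median difference was -0.097 without control hen 3, likewise -0.097 without SF hen 2 and -0.11 without control hen 2. Once the array number was fitted as a covariate it was -0.040, but that fit cannot tell place from treatment. The median difference turned to 0.24 with a tissue score in the fit, which is described with the tissue markers. The 4 genes with a higher mean in SF than in control hens were NDUFA1, NDUFA10, ATP5I and ATP5S.

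Between mated and SF hens, the mean was lower in mated hens for 12 of the 53 genes, against 51.5% of all features, with a median difference of 0.061, which was -0.11 without mated hen 3 and -0.036 without SF hen 2. With limma, 1 gene (ATP5S) passed an unadjusted p of 0.05, which 4.7% of all features (1756) did. No gene separated the 2 groups, which 3.04% of all features did. After Benjamini-Hochberg adjustment over all features, 0 of the 53 genes and 0.0% of all features passed 0.05 in each of the 3 comparisons.

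The 95% intervals included 0 for 53 genes between mated and control hens, for 52 between SF and control hens and for 52 between mated and SF hens. They were wide: the SE of a difference was 0.088 to 0.48 with a median of 0.20, and over all genes the intervals reached from -1.31 to 0.83 between mated and control hens and from -1.45 to 0.82 between SF and control hens. A p above the threshold therefore does not show that a gene was at the same level. Each gene had a single residual variance over all groups. The intervals between SF and control hens therefore also carry the spread among mated hens. Without mated hen 3 the SF difference from control hens stayed at -0.218 for NDUFS1 and -0.409 for NDUFB10. Their unadjusted limma p-values moved from 0.0828 to 0.0447 and from 0.112 to 0.0403. In that setting 8.64% of all features passed, against 6.47% with all hens.

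**Figure D2:**
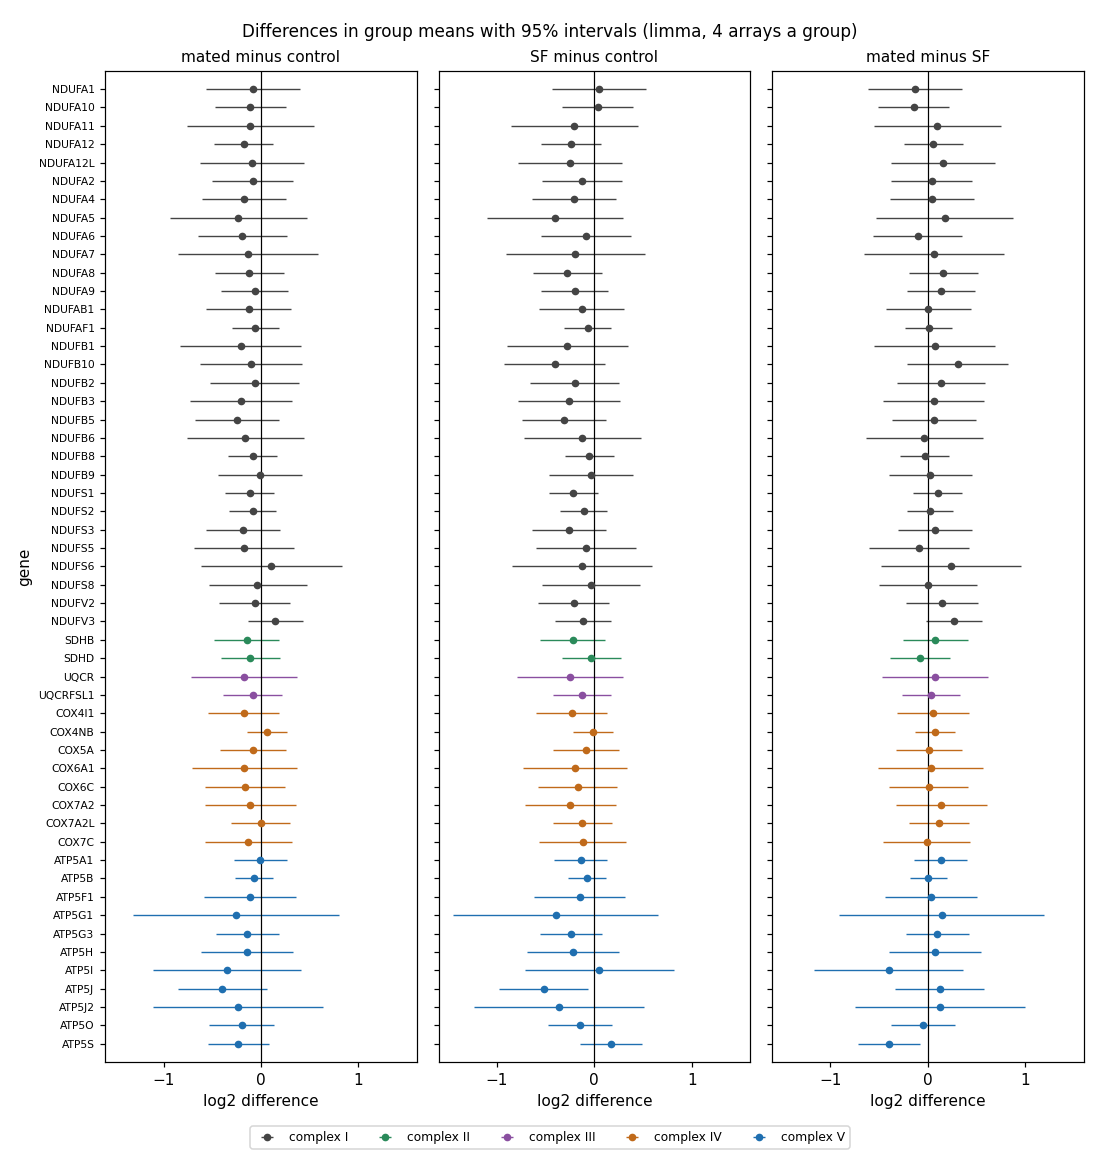
Difference in mean log2 intensity with its 95% interval for each of the 53 genes, as mated minus control, SF minus control and mated minus SF hens (n = 4 each), coloured by complex. Most points lie left of 0 in the first and second panel, and every interval includes 0 but those of ATP5J (SF minus control) and ATP5S (mated minus SF).

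Complex I, NADH dehydrogenase, was measured by 28 subunits and 2 assembly factors. Against control hens 28 of the 30 genes were lower in mated hens (median -0.11) and 28 of 30 in SF hens (median -0.20). None of the 30 passed an unadjusted p of 0.05 in limma in any of the 3 comparisons. Of all features 2.22% to 6.47% passed. NDUFS1 encodes the large iron-sulphur subunit that receives electrons from the NADH-binding part. It lay at 13.42, 13.30, 13.68 and 13.22 in mated, at 13.41, 13.17, 13.30 and 13.31 in SF and at 13.64, 13.49, 13.57 and 13.37 in control hens. Of the SF hens, only hen 1 exceeded the lowest control hen. The difference between SF and control hens was -0.22 (SE 0.11, limma unadjusted p = 0.0828, adjusted p = 0.735).

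NDUFV3, a small accessory subunit of the NADH-binding part, behaved differently from the others. Its level was 10.02, 10.24, 10.44 and 10.37 in mated, 9.96, 9.97, 10.01 and 10.06 in SF and 9.94, 10.46, 10.04 and 10.04 in control hens. The SF hens lay within 0.10 of each other, and only mated hen 1 was among their values. The difference of 0.27 between mated and SF hens (SE 0.13) had an unadjusted p of 0.064 and an adjusted p of 0.998 in limma. NDUFV3 and NDUFS6 were the only genes of complex I with a higher mean in mated than in control hens (0.15 and 0.11).

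NDUFB10, an accessory subunit of the membrane arm and the dimmest feature of complex I, lay at 5.83, 6.08, 6.84 and 5.89 in mated, 5.86, 5.38, 5.92 and 6.27 in SF and 6.21, 6.28, 6.49 and 6.08 in control hens. SF hens 1 to 3 were below all control hens and SF hen 4 was among them. The SF difference was -0.41 (SE 0.24, limma unadjusted p = 0.112). NDUFA4 was the brightest feature counted with complex I by name, although its protein is now placed with complex IV. It followed the common pattern closely, with 14.10 in mated hen 3 and 13.17 in mated hen 4, 13.35 to 13.82 in SF and 13.61 to 14.09 in control hens.

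A pair of complex I genes had a second, dimmer feature. That of NDUFS3, a core subunit of the peripheral arm, lay at 12.37, 11.56, 12.35 and 8.96 in mated, 12.57, 11.72, 11.26 and 12.39 in SF and 11.65, 12.67, 12.29 and 12.14 in control hens. Mated hen 4 was lowest on this feature, at 3.39 below mated hen 3, while the gap on the brighter NDUFS3 feature was 0.77 and SF hen 2 was lowest there. The second NDUFA5 feature gave 5.85 in mated hen 3 and 4.94 in mated hen 4, a gap of 0.91, beside 1.46 on the brighter feature.

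Complex II, succinate dehydrogenase, was represented by SDHB, its iron-sulphur subunit, and SDHD, one of its membrane anchors. SDHB lay at 12.76, 12.83, 13.30 and 12.73 in mated, 12.92, 12.52, 12.87 and 13.00 in SF and 12.95, 13.20, 13.13 and 12.92 in control hens. Mated hen 3 was alone above the other mated hens, which were all below the control hens. The SDHB difference was -0.15 (SE 0.15) in mated and -0.22 (SE 0.15) in SF hens against control hens, and that of SDHD was -0.11 (SE 0.14) and -0.030 (SE 0.14). The unadjusted limma p-values were 0.357 and 0.172 for SDHB and 0.444 and 0.832 for SDHD.

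Complex III, the cytochrome bc1 complex, was represented by UQCRFSL1 (now UQCRFS1), the Rieske iron-sulphur protein, and UQCR (now UQCR11), a small subunit without cofactor. UQCR lay at 13.00, 13.11, 13.53 and 12.42 in mated, 13.27, 12.47, 12.80 and 13.21 in SF and 13.10, 13.32, 13.45 and 12.87 in control hens. The low hens were mated hen 4 and SF hen 2 and the groups overlapped. On UQCRFSL1 mated hen 4 was lowest and mated hen 3 highest too, with a smaller span of 13.27 to 13.84. Both were lower in mated and in SF hens than in control hens by 0.087 to 0.25 on the log2 scale, and the smallest unadjusted limma p was 0.338.

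Complex IV, cytochrome c oxidase, was measured by 6 nuclear subunits, COX7A2L and COX4NB. All 8 had a lower mean in SF than in control hens (median -0.15) and 7 of 8 in mated than in control hens (median -0.12). None passed an unadjusted p of 0.05 in limma in any of the 3 comparisons (2.22% to 6.47% of all features did). COX4I1, the widely expressed form of subunit IV, lay at 12.96, 13.02, 13.46 and 12.78 in mated, 13.15, 12.74, 13.00 and 13.12 in SF and 13.01, 13.41, 13.44 and 13.07 in control hens. Control hens 2 and 3 were close to mated hen 3, and control hens 1 and 4 were within the SF hens. The difference was -0.18 (SE 0.17) in mated and -0.23 (SE 0.17) in SF hens against control hens.

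COX6A1 and COX7A2, the forms of their subunits that are not particular to muscle in mammals, were also high in mated hen 3 and low in mated hen 4, with 13.99 in mated hen 3 and 12.74 in mated hen 4 for COX6A1 and 13.03 and 12.09 for COX7A2. COX7C, another small membrane subunit, lay at 13.84 and 12.94 in these hens. COX7A2L is related to COX7A2 in sequence and is known in mammals for joining complexes III and IV into supercomplexes. It varied less among mated hens (13.35, 13.36, 13.50 and 13.22) and was lowest in SF hen 2, with 13.38, 12.87, 13.18 and 13.53 in SF and 13.32, 13.49, 13.42 and 13.22 in control hens. Its log2 difference was -0.004 (SE 0.14) in mated and -0.12 (SE 0.14) in SF hens against control hens. The muscle or regulated forms COX4I2, COX6A2 and COX7A1 were not analysed here.

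Complex V was measured by 10 subunits and ATP5S. All 11 means were lower in mated than in control hens (median -0.20) and 9 of 11 were lower in SF than in control hens (median -0.15). ATP5J, subunit F6 of the stalk that holds the catalytic head in place, was the only one of the 53 genes to pass an unadjusted p of 0.05 against control hens. It lay at 7.52, 7.34, 8.30 and 7.29 in mated, 7.46, 7.70, 7.29 and 7.50 in SF and 8.18, 8.06, 8.02 and 7.77 in control hens. The 4 SF hens were all below the 4 control hens, by 0.07 at the closest, and so were mated hens 1, 2 and 4, whereas mated hen 3 was the highest of all 12 hens.

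ATP5J averaged 7.49 ± 0.17 in SF and 8.01 ± 0.17 in control hens (SD, n = 4 each), a difference of -0.52 (SE 0.21, 95% interval -0.98 to -0.065), or 0.70-fold, with an unadjusted p of 0.0288 and an adjusted p of 0.735 in limma. In mated hens it averaged 7.61 ± 0.47 and differed from control hens by -0.40 (SE 0.21, limma unadjusted p = 0.0813). The larger SD of the mated hens also enters the SE of the SF difference, since the fit pooled the spread of all groups. Without mated hen 3 the difference between mated and control hens was -0.63 with an unadjusted p of 0.000726 in limma. The hen left out was the highest of all hens on ATP5J, so that its removal also lowered the spread among mated hens. In that setting 5.64% of all features passed the unadjusted threshold, and the smallest adjusted p over all features was 0.755. The SF call was lost, with unadjusted p-values of 0.0523 to 0.0748 in limma, when SF hen 1, SF hen 3, or control hen 1, 2 or 3 was left out. With the array number as a covariate the difference was -0.18 (limma unadjusted p = 0.792). Array number follows the order of the groups, so that fit cannot tell place from treatment. No conclusion on the call is drawn from it.

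ATP5S encodes coupling factor B, a protein that is found with ATP synthase but is no subunit of the isolated enzyme. It lay at 5.66, 5.40, 5.89 and 5.51 in mated, 6.04, 5.77, 6.08 and 6.16 in SF and 6.11, 5.88, 5.80 and 5.59 in control hens. Mated hens 1, 2 and 4 were below all SF hens and mated hen 3 was above SF hen 2. The difference between mated and SF hens was -0.40 (SE 0.14, 95% interval -0.72 to -0.084, limma unadjusted p = 0.0178, adjusted p = 0.943). Against control hens ATP5S differed by -0.23 in mated and by 0.17 in SF hens (SE 0.14, limma unadjusted p = 0.135 and 0.266). Without mated hen 2 the difference between mated and SF hens was -0.33, with an unadjusted p of 0.0562 in limma.

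ATP5G1 and ATP5G3 encode the same mature protein, subunit c of the rotating ring, with different import sequences. ATP5G1 had the widest span of the 53 genes, with 8.09, 8.10, 9.37 and 6.87 in mated, 8.43, 7.15, 7.93 and 8.35 in SF and 7.96, 8.67, 8.92 and 7.90 in control hens. ATP5G3 had 13.82, 13.84, 14.22 and 13.57 in mated, 13.97, 13.65, 13.66 and 13.77 in SF and 13.82, 14.12, 14.18 and 13.88 in control hens. On both, mated hen 3 was highest and mated hen 4 lowest. Differences against control hens were -0.25 (SE 0.48) in mated and -0.40 (SE 0.48) in SF hens for ATP5G1, and -0.14 (SE 0.15) and -0.24 (SE 0.15) for ATP5G3. ATP5B, the catalytic beta subunit and the brightest feature of the group, varied least and lay between 14.35 and 14.62 on all 12 arrays.

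**Figure D3:**
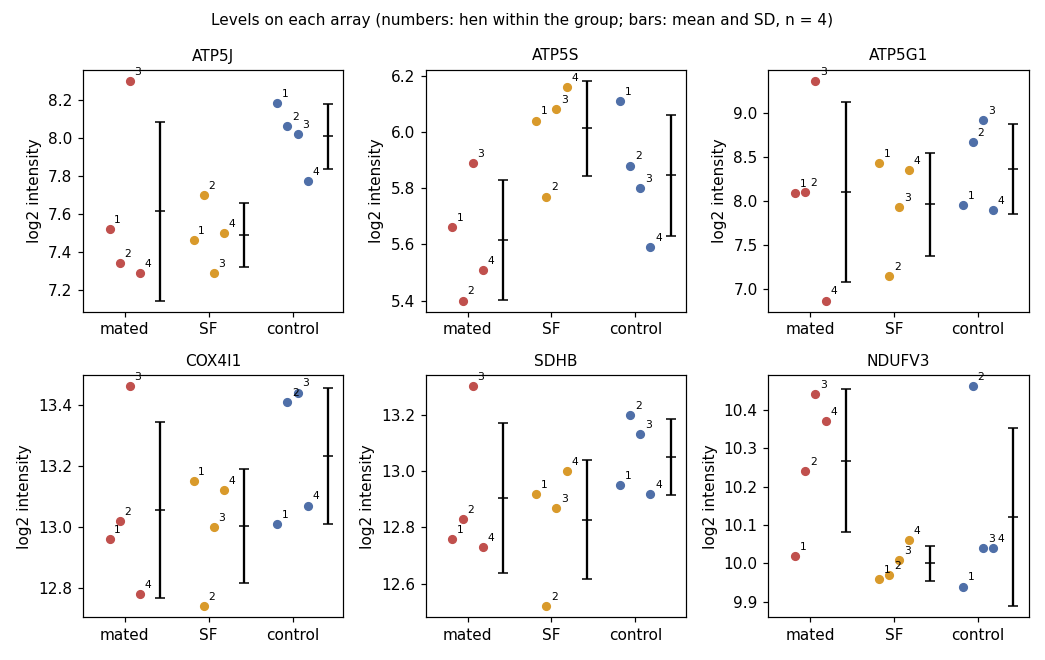
Log2 intensity of 6 genes in each hen of the mated, SF and control groups, with the hen's number beside its point and the mean and SD (n = 4) to the right. For ATP5J the 4 SF hens lie below the 4 control hens, while for ATP5G1, COX4I1 and SDHB mated hen 3 is the highest of the mated hens and mated hen 4 the lowest.

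The 13 subunits encoded in the mitochondrial genome were all measured, on features that were among the bright ones of the array (13.72 to 15.20). Their median deviation ran from -0.14 in mated hen 4 to 0.12 in control hen 3, a span of 0.26 beside 0.84 for the 53 nuclear genes. Mated hen 3 was at 0.07. Bright features spanned less among the 53 genes too, and the part of brightness in this contrast was not tested. Over the hens this median followed that of the 53 genes (r = 0.80). A lower mean in SF than in control hens was seen for 12 of the 13 (48.3% of all features). In 2 of them all SF hens lay below all control hens (3.84% of all features separated, in either direction). The margins were very narrow. The highest SF and the lowest control hen were at 14.88 and 14.89 for ND5 and at 14.72 and 14.73 for ND6. Of the 13, 0 passed an unadjusted p of 0.05 in limma against control hens in either treatment (smallest p 0.0924 in mated and 0.116 in SF hens). Of all features 2.22% and 6.47% passed. ND4L, a membrane subunit of complex I, passed between mated and SF hens (4.7% of all features did). It lay at 14.13, 14.10, 14.15 and 14.20 in mated, 13.76, 13.72, 13.89 and 13.75 in SF and 13.97, 13.79, 14.22 and 13.84 in control hens. The mated hens were all above the SF hens, with the control hens across both, and the difference was 0.36 (SE 0.10, limma unadjusted p = 0.0047, adjusted p = 0.811).

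Other mitochondrial gene groups moved with the 53 genes over the hens to different degrees. The 55 mitochondrial ribosomal proteins had median deviations of 0.33 in mated hen 3 and -0.19 in mated hen 4, and all 55 were higher in mated hen 3. None of the 55 passed an unadjusted p of 0.05 in limma in any of the 3 comparisons. Of all features, 2.22% passed in mated against control, 6.47% in SF against control and 4.7% in mated against SF hens. The 17 ADP, phosphate and outer membrane carriers lay at 0.30 and -0.26 in these hens, with 17 of 17 higher in mated hen 3, and none of them passed either. The 16 genes of glycolysis and lactate lay at 0.00 and 0.04 with 7 of 16 higher in mated hen 3, and none passed in any comparison. These are medians, and single genes of this list differed more. Against control hens their differences ran from -0.197 to 1.32 in mated and from -0.318 to 2.776 in SF hens.

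Of the 18 genes of the Krebs cycle and pyruvate dehydrogenase, 15 were higher in mated hen 3 than in mated hen 4. Against control hens 0 passed an unadjusted p of 0.05 in limma in mated hens (2.22% of all features did). In SF against control hens 2 were lower and 0 higher (6.47% of all features passed). All SF hens lay below all control hens in 3 of the 18 (3.84% of all features separated, in either direction). Between mated and SF hens 0 passed (4.7% of all features did). PDK1, a kinase that switches off pyruvate dehydrogenase, lay at 10.46, 10.15, 10.54 and 10.58 in SF and 10.66, 10.80, 10.83 and 10.78 in control hens, without overlap, a difference of -0.34 (SE 0.13, limma unadjusted p = 0.0219). DLD is the lipoamide dehydrogenase shared by the pyruvate and oxoglutarate complexes. It lay at 13.29, 12.93, 13.06 and 13.20 in SF and 13.38, 13.38, 13.44 and 13.30 in control hens. Its groups also did not overlap, but the margin was very narrow (13.29 against 13.30). The DLD difference was -0.25 (SE 0.11, limma unadjusted p = 0.0455). Both had an adjusted p of 0.735.

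Among 14 genes for electron carriers and related enzymes, 1 was higher and 1 lower in SF than in control hens at an unadjusted p of 0.05 in limma (6.47% of all features passed). In mated against control or mated against SF hens 0 passed (2.22% and 4.7% of all features did). ETFA passes electrons from fatty acid oxidation towards ubiquinone. It lay at 9.21, 9.21, 9.32 and 9.42 in SF, 9.24, 9.12, 9.05 and 9.04 in mated and 8.94, 8.89, 9.01 and 8.94 in control hens, with no control hen as high as any treated hen. The SF difference was 0.34 (SE 0.09, limma unadjusted p = 0.00203, adjusted p = 0.735). CYCS, cytochrome c itself, lay at 13.00, 12.26, 12.50 and 12.90 in SF and 13.12, 13.27, 13.26 and 12.97 in control hens, where SF hen 1 was above control hen 4, with a difference of -0.49 (SE 0.21, limma unadjusted p = 0.0401, adjusted p = 0.735).

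Of 21 regulators of mitochondrial biogenesis, PPARGC1A alone passed an unadjusted p of 0.05 in limma, in SF against control hens (6.47% of all features passed). It encodes PGC-1alpha, a coactivator that is known in mammals to raise the transcription of nuclear respiratory genes. Its level was 10.31, 8.99, 9.56 and 8.34 in SF hens, 10.85, 10.96, 11.56 and 8.89 in mated hens and 11.68, 10.94, 11.20 and 10.23 in control hens. SF hens 2, 3 and 4 were below all control hens, and mated hens 3 and 4 were the highest and the lowest of the mated hens here too. The SF difference was -1.71 (SE 0.58, limma unadjusted p = 0.0131, adjusted p = 0.735). Of 20 further assembly factors none passed in any of the 3 comparisons (2.22% to 6.47% of all features did).

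Shell gland markers moved with the median of the 53 genes over the hens (r = 0.81) and squamous markers against it (r = -0.79). A negative r was not particular to squamous markers, since r was -0.73 for smooth muscle, -0.64 for T lymphocyte and -0.57 for ciliated cell markers. No other marker list had a positive r near that of the shell gland. It was 0.06 for erythrocyte, -0.03 for columnar epithelium and -0.2 for testis and sperm markers. The median over all features, although it moved little between hens, also had a positive r (0.55). In mated hen 1, SF hen 4 and control hen 4, the shell gland markers and the 53 genes lay on opposite sides of 0. The mean deviation of 18 shell gland markers was 0.30, -0.39, 0.62 and -0.72 in mated hens 1 to 4, 0.28, -0.84, -0.84 and -0.40 in SF hens and -0.45, 0.80, 1.37 and 0.26 in control hens, and that of 14 markers of stratified squamous epithelium was -0.24, 0.25, -0.58 and 0.59 in mated, 0.13, 0.62, 0.66 and 0.22 in SF and -0.51, -0.64, -0.95 and 0.44 in control hens. Mated hen 3 and control hens 2 and 3, where the 53 genes were highest, were thus those with the most shell gland and least squamous signal, and mated hen 4 and SF hens 2 and 3, the lowest on the 53 genes, were at or near the other end. At an unadjusted p of 0.05 in limma, 5 of the 14 squamous markers were higher and 5 of the 18 shell gland markers lower in SF than in control hens (6.47% of all features passed). In mated against control hens these counts were 0 and 1 (RARRES1), where 2.22% of all features passed. The marker lists were chosen with earlier results of these data known, so these counts are a description and not a test. CALB1, the calcium-binding protein of the shell gland, lay between 3.92, near the random control, and 12.38, and all 32 markers were above the random control on all 12 arrays.

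The squamous mean less the shell gland mean was taken as a tissue score. With the score as a covariate in the limma fit, the median difference over the 53 genes was 0.24 between SF and control hens and 0.099 between mated and control hens. The direction thus turned in both comparisons. However, the score itself lay at -0.15 to 1.51 in SF hens and at -2.32 to 0.18 in control hens. Of the SF hens only hen 1 was within the control range. Mated hens were spread across both groups, from -1.195 in mated hen 3 to 1.313 in mated hen 4. Its marker lists were also chosen with earlier results of these data known. Score and treatment therefore cannot be fully told apart in this fit, least of all between SF and control hens. No conclusion is drawn from the turn in either comparison. In SF against control hens 9 of the 53 genes passed an unadjusted p of 0.05 and all 9 were higher in SF hens (9.77% of all features passed), ATP5J was not among them (log2 difference -0.25, unadjusted p = 0.315), and 0 passed after adjustment. Between mated and SF hens the median difference with the score was -0.14 and 44 of the 53 genes were lower in mated hens, with 7 past an unadjusted p of 0.05 in limma, all lower in mated hens (6.95% of all features passed).

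Markers of other cell types are given by their mean deviations. Of 16 T lymphocyte markers the mean deviation was -0.25, 0.32, -0.44 and 1.37 in mated, -0.23, 0.42, 0.00 and -0.03 in SF and -0.58, 0.22, -0.45 and -0.35 in control hens, so that mated hen 4 stood highest. The 15 ciliated cell markers ranged from -0.48 to 0.17 in mated, -0.09 to 0.31 in SF and -0.52 to 0.24 in control hens, and were lowest in control hen 3 and mated hen 3. At an unadjusted p of 0.05 in limma, 4 of these 15 were higher in SF than in control hens (6.47% of all features passed). In mated against control hens 0 were higher (2.22% of all features passed). The 8 smooth muscle markers lay at 0.14, 0.12, -0.39 and 0.08 in mated, 0.03, 0.14, -0.04 and -0.19 in SF and 0.11, -0.22, -0.05 and 0.26 in control hens, lowest in mated hen 3 and control hen 2, both of which were high on the 53 genes. In mated, SF and control hens, the 7 columnar epithelium markers ranged from -0.10 to 0.13, -0.10 to 0.09 and -0.13 to 0.07, and the 11 erythrocyte markers from -0.38 to 0.24, -0.45 to 0.81 and -0.65 to 0.52. The 12 testis and sperm markers ranged from -0.15 to 0.09, -0.12 to 0.22 and -0.08 to 0.07, with SPACA1 not above the random control on any array and DDX4 above it on 1. The part of these cell types in the levels of the 53 genes was not tested.

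**Figure D4:**
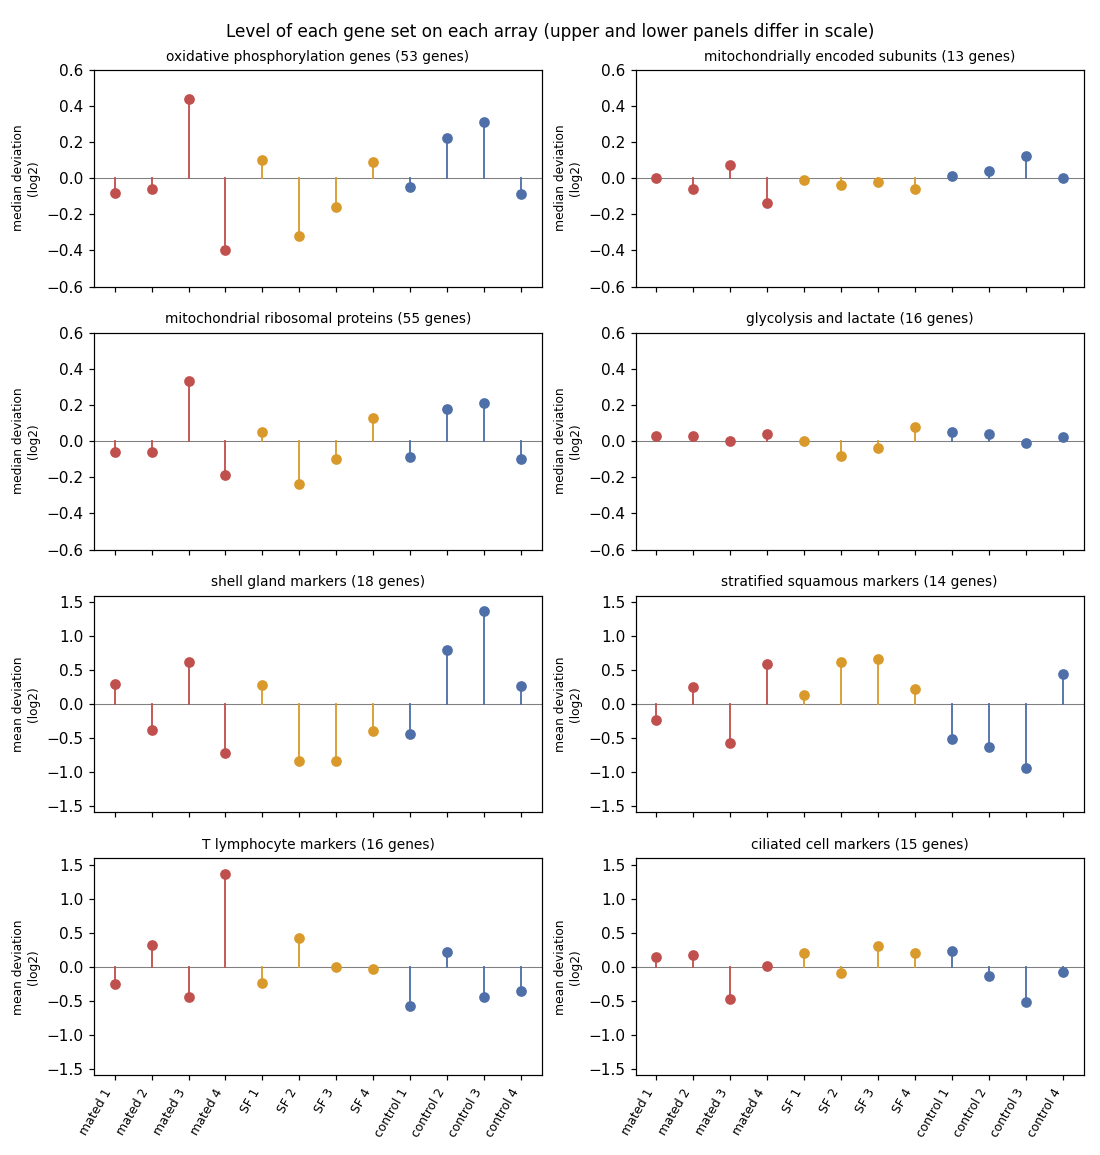
Deviation of 8 gene sets from their genes' means over the 12 arrays, in log2 units, for mated, SF and control hens 1 to 4 (median over genes for the 4 metabolic sets, mean over genes for the 4 marker sets, with a wider scale). The 53 nuclear genes and the mitochondrial ribosomal proteins are high or low in much the same hens as the shell gland markers. The squamous markers run the other way, and the median of the glycolysis genes stays between -0.08 and 0.08.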

How the data were processed

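The authors deposited linear intensity values of Cy3-labelled UVJ RNA from 12 hens after robust multichip averaging (RMA), which adjusts background, makes arrays alike by quantiles and summarises probes, so values are relative to the other features of an array. RMA and limma are listed in the submitters' processing notes. Another deposited column, the number of probes, was 3 for 54 of the 55 features of these genes. A deposited series table held the same intensity values. The array's genome build is not given in the sources used here.

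Symbols came from the feature names, and 51 of the 53 genes were matched to the GRCg7b gene table. Log2 intensities of all 37374 features entered 1 limma model (limma 3.58.1, R 4.3.3) with a mean per group and empirical Bayes moderation, as in the study's methods, with two-sided tests and Benjamini-Hochberg adjustment over all features. The model was tested on simulated data in which each feature varied independently. That simulation held no genes that move together and no arrays of unequal quality. The number of hens limits the precision.

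The genes and lists were chosen with earlier results of these data known. Genes given in full were those past an unadjusted p of 0.05, those whose treated hens lay apart from all control hens, the brightest, the dimmest and the 2 with the smallest F test p of each complex, and isoform groups. NDUFS6, the second features and the genes named for a low median r or for a call without mated hen 3 were chosen after their values were seen, as were the settings without mated hens 3 and 4 and without ATP5I. The other alternatives were scalings, filters, covariates, array weights, a trended prior, a replicate block, the choice of features and leaving out each hen.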

Additional observations from a re-analysis of the deposited data

Results flagged for a closer look

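SDHB in mated hen 3 lay at 13.30, apart from the other mated hens at 12.73 to 12.83, a gap of 0.832 of the group's range above Dixon's critical value for 4 samples. It was the only such value among 60 groups tested (20 genes in 3 groups), and chance marks about 1 group in 20.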

How the results depend on the processing

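The counts of genes past an unadjusted p of 0.05 in limma rest on 1 gene or none and moved with the setting. Filters by brightness left out called genes themselves, since ATP5S is among the dimmest features and ATP5J is below the median. ATP5S is also absent from the subunits alone. Counts of 0 in those settings are therefore not calls that were tested again and lost. Between mated and control hens (0 genes) the count was 1 with the tissue score as a covariate (4.13% of all features passed), 2 with array weights (4.98%), 1 without mated hens 3 and 4 (2.38%), and 0 to 5 when each hen was left out in turn, with 5 without mated hen 3 (5.64%). Between SF and control hens (1 gene) it was 0 without the features below the median (5.78%), 0 with the array number as a covariate (2.52%), 9 with the tissue score (9.77%), 3 with array weights (10.9%), 3 without mated hens 3 and 4 (9.26%), and 0 to 3 with each hen left out. Between mated and SF hens (1 gene) it was 0 without the dimmest features (2.6%), 0 without the features below the median (1.98%), 2 with only these groups in the fit (4.34%), 0 with the array number (3.29%), 7 with the tissue score (6.95%), 0 over subunits alone, and 0 to 2 with each hen left out.

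The median differences ranged, with each hen left out, from -0.28 to -0.007 (mated against control), from -0.24 to -0.097 (SF against control) and from -0.11 to 0.18 (mated against SF). Without mated hen 3 the first was -0.28, without mated hen 4 it was -0.007, and without control hen 3 it was -0.038. With the array number as a covariate the 3 medians were -0.060, -0.040 and -0.014, and with the tissue score 0.099, 0.24 and -0.14, where SDHD turned to 0.25 in SF against control hens (unadjusted p = 0.0474 in limma). The cause was not tested. Place on the array set and treatment cannot be told apart in the fits with the array number. No conclusion is drawn from the counts and medians of those fits. The labels do not say whether replicate numbers pair the hens. Correlations of deviations ran from -0.36 to 0.62 for the same number and from -0.62 to 0.53 for other numbers. With the replicate block the counts were 0, 1 and 1 and the medians -0.12, -0.17 and 0.061, so that no call changed. Under the other scalings, the trended prior and the series table, counts were as given in the report. Of 1416 values of the 20 genes given in full, 1390 kept direction and side of the threshold or changed sign without a call, 16 gained and 9 lost the call and 1 turned.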
